A study of Mus musculus with 23 samples.

Results

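Dusp4, Dusp6, Etv4 and Fos are genes that cells switch on when the ERK kinases are active. They were taken by symbol, as 4 of the 11494 genes with a named probe on Illumina mouse BeadChips, and every probe annotated to them was read, which gave 9 probes among 45281, with 4 for Dusp4, 3 for Dusp6, 1 for Etv4 and 1 for Fos. RNA had been hybridized from 22 mouse pluripotent cultures and from 1 culture of wild-type mouse embryonic fibroblasts (MEFs), and the labels give all 23 the same mixed C57Bl6/CBA/129 strain background, although the methods of the study take the MEFs from MF1 fetuses. The 5 rESCs, which are epiblast stem cells reverted to an ESC-like state in medium with LIF and fetal calf serum on feeders, came from 3 Blimp1 null lines (J2.3, BL2 and BL6) and 2 Blimp1 heterozygous lines (BL3 and BL7). The 5 epiSCs, grown on MEF feeders in N2B27 medium with activin A, bFGF and serum replacement, came from 2 null lines (BL2 and BL6) and 3 heterozygous lines (BL3, BL4 and BL7). Embryonic stem cells (ESCs) of 3 null lines (JAG1, JAG2 and B12) and 3 heterozygous lines (PAN1, PUM3 and CHE4) were profiled in 2i/LIF, which is N2B27 medium with the MEK inhibitor PD0325901, the GSK3 inhibitor CHIR99021 and LIF, and again in the conventional culture with serum. The labels name a medium only for the 2i/LIF arrays, and the serum and LIF of the other ESCs come from the text of the study. Whether feeders were used for these arrays is not given in the sources used here. Every pluripotent line carries at least 1 mutant Blimp1 allele, so that no wild-type pluripotent culture was compared. Each array is a single culture of a single line, and p-values measure the spread between such lines.

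Fibroblast growth factors (FGFs) bind receptor tyrosine kinases that activate RAS, RAF, MEK and finally ERK, which phosphorylates transcription factors in the nucleus. ERK switches on immediate-early genes such as Fos within minutes, and more slowly the genes of its own inhibitors, among them the dual-specificity phosphatases Dusp4 and Dusp6. In mouse ESCs, FGF4 made by the cells themselves drives ERK and readies them to differentiate, and MEK inhibition holds them in the naive state, whereas epiSCs are propagated with added FGF. The arrays therefore set these genes in cells with MEK inhibited beside cells given an FGF.

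The upstream sequences of 2 of the 4 genes were found in the RefSeq promoter table (build GRCm38.p6), and both are shown, as an ERK phosphatase and an immediate-early gene. Each runs from 250 bases before the start of transcription to 50 bases after it, on the plus strand, at chr10:99262981-99263280 for Dusp6 and at chr12:85473640-85473939 for Fos. Capitals mark matches to the ETS site CGGAAG, the cyclic AMP response element core TGACGT, the TATA box TATAAA and the GC box GGGCGG, each searched on both strands.
Dusp6: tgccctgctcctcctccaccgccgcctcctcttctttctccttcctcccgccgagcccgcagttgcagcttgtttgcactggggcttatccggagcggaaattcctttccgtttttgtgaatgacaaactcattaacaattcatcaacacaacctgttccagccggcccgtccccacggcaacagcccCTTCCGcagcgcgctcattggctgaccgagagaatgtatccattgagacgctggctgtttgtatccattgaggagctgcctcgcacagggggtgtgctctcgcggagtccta
Fos: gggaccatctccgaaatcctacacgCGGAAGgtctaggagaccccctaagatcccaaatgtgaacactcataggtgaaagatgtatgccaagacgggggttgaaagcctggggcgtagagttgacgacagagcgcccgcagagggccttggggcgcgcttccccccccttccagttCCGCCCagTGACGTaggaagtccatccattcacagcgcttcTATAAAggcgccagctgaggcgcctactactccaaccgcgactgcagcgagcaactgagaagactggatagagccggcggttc
The Dusp6 window held 1 match, an ETS site on the minus strand that began at position -62 from the start. The Fos window held an ETS site at -225, a GC box on the minus strand at -74, the response element core at -66 and a TATA box at -33, none of which overlapped another. Over all 32544 promoters of the table, 17.0% held the ETS site, 7.55% the response element core, 13.6% the TATA box and 35.9% the GC box. The AP-1 site TGANTCA, bound by Fos with its Jun partners, was held by 7.79% of promoters and the CArG box, the site of the serum response factor, by 1.64%. Neither was matched in the Dusp6 or the Fos window. Sequence further than 250 bases upstream was not searched, so the windows cannot show whether either gene has such a site there. Etv4 and Dusp4 were not in the table.

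Between 12197 and 14599 probes were detected on an array (detection p under 0.01), and 84 of 88 readings of the brightest probes of the 4 genes in pluripotent cells were detected. Pou5f1, Sox2, Nanog and Sall4, which mark pluripotent cells, were detected on all 22 pluripotent arrays and not on the MEF array, and the epiSC markers Lhx1 and Foxa2 were detected on the 5 epiSC arrays alone. Fgf5, another epiSC marker, was also detected on 4 of 5 rESC arrays and on 1 of 6 serum ESC arrays. Otx2, also taken as an epiSC marker, was detected on every pluripotent array. It averaged 9.51 in epiSCs, 9.08 in rESCs, 8.05 in serum ESCs and 7.30 in 2i/LIF ESCs. The BL6 epiSC array stood apart in the naive-cell markers Esrrb at 10.73, Zfp42 at 9.46 and Tfcp2l1 at 9.38. The other 4 epiSCs read 4.85 to 7.52, 4.38 to 6.36 and 6.17 to 7.36. Klf4, also a naive marker, did not set BL6 apart, at 5.26 against 5.44 in the BL7 epiSC. The epiSC comparisons are given with and without the BL6 array. Of 24 fibroblast genes, 14 to 19 were detected on rESC arrays, 13 to 19 on epiSC arrays, 5 to 9 on 2i/LIF ESC arrays and 16 to 17 on serum ESC arrays, and the median marker reached 4.83 to 13.1% of its MEF signal in rESCs, 3.92 to 4.98% in epiSCs, 1.09 to 1.55% in 2i/LIF ESCs and 6.27 to 8.96% in serum ESCs. Acta2, Bgn, Thy1 and Dcn were detected on every rESC, epiSC and serum ESC array, and Col1a1 on 5 of 5, 4 of 5 and 6 of 6 of them, whereas Pdgfrb was detected on no pluripotent array and Col1a2 on 1, in 2i/LIF. The J2.3 rESC array had the highest median fibroblast marker.

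Levels are given on a log2 scale after background correction and quantile normalization over the 23 arrays, where an undetected probe lies near 4.5 and a step of 1 is a doubling. Dusp4, a nuclear phosphatase that removes the activating phosphates of ERK, averaged 8.32 ± 0.79 in rESCs, 7.26 ± 0.26 in epiSCs (SD, n = 5 each), 4.97 ± 0.43 in 2i/LIF ESCs and 8.11 ± 0.77 in serum ESCs (SD, n = 6 each), with 5.89 in MEFs. The 5 rESC readings were 9.10 (BL2), 8.81 (BL6), 8.75 (BL3), 7.63 (J2.3) and 7.33 (BL7), and the 5 epiSC readings were 7.49 (BL6), 7.34 (BL2), 7.34 (BL7), 7.31 (BL4) and 6.81 (BL3). In 2i/LIF ESCs Dusp4 ran from 4.38 through a median of 5.02 to 5.44 and was detected in 3 of 6 lines, and in serum ESCs it ran from 6.92 (B12) through a median of 8.18 to 9.19 (CHE4). The 2i/LIF ESCs lay below every other pluripotent culture, and rESCs, epiSCs and serum ESCs overlapped one another.

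Dusp6, a cytoplasmic phosphatase with a high preference for ERK itself, had its highest level in epiSCs, at 10.51 ± 0.16 (SD, n = 5), beside 9.995 ± 0.25 in rESCs (SD, n = 5), 7.36 ± 0.41 in 2i/LIF ESCs and 9.35 ± 0.85 in serum ESCs (SD, n = 6 each), with 8.995 in MEFs. The rESC readings were 10.34 (BL6), 10.11 (BL3), 10.04 (BL2), 9.77 (J2.3) and 9.72 (BL7), and the epiSC readings 10.63 (BL7), 10.62 (BL6), 10.61 (BL4), 10.44 (BL2) and 10.26 (BL3). In 2i/LIF ESCs it ran from 6.77 (JAG1) through a median of 7.42 to 7.83 (B12). The serum ESCs fell apart into PAN1, PUM3 and B12 at 10.30, 10.24 and 9.75 and JAG1, JAG2 and CHE4 at 8.73, 8.56 and 8.50, a division that did not follow the Blimp1 genotype, since each set held both.

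Etv4, an ETS-family transcription factor of the PEA3 group that acts downstream of FGF signals, was ordered otherwise. It averaged 7.82 ± 0.31 in rESCs, 5.65 ± 0.53 in epiSCs (SD, n = 5 each), 6.23 ± 0.66 in 2i/LIF ESCs and 7.12 ± 0.34 in serum ESCs (SD, n = 6 each), with 5.88 in MEFs. The rESC readings were 8.03 (BL3), 8.01 (BL6), 7.99 (BL7), 7.76 (BL2) and 7.30 (J2.3), and the epiSC readings 6.26 (BL4), 6.20 (BL6), 5.45 (BL7), 5.20 (BL2) and 5.17 (BL3). All rESCs lay above all epiSCs. In 2i/LIF ESCs 5 lines lay between 5.72 and 6.25 and B12 stood at 7.53, above the highest serum ESC, while serum ESCs ran from 6.62 (PAN1) through a median of 7.14 to 7.49 (PUM3).

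Fos, the partner of Jun in the transcription factor AP-1, averaged 8.78 ± 0.37 in rESCs, 7.66 ± 0.34 in epiSCs (SD, n = 5 each), 6.77 ± 1.05 in 2i/LIF ESCs and 9.28 ± 0.40 in serum ESCs (SD, n = 6 each), with 6.51 in MEFs. The rESC readings were 9.13 (BL6), 9.13 (BL3), 8.86 (BL2), 8.45 (J2.3) and 8.34 (BL7), and the epiSC readings 8.01 (BL7), 7.77 (BL3), 7.74 (BL4), 7.68 (BL2) and 7.08 (BL6). Fos had the widest spread of the 4 genes in 2i/LIF, from 4.92 in B12, where it was not detected, through a median of 6.96 to 8.03 in PUM3. Serum ESCs ran from 8.82 (B12) through a median of 9.23 to 9.97 (PAN1), above every epiSC and 2i/LIF culture.

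**Figure D1:**
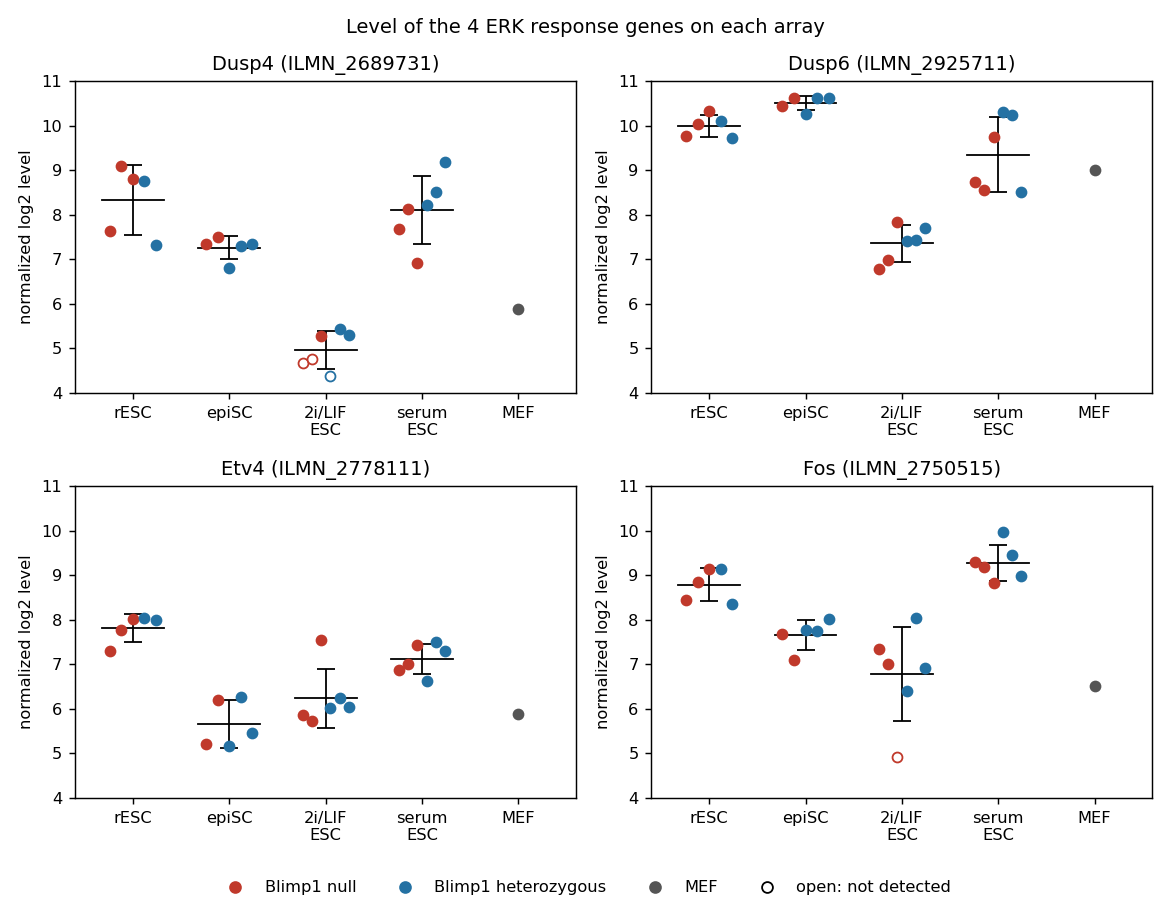
Normalized log2 level of the brightest probe of Dusp4, Dusp6, Etv4 and Fos on each of the 23 arrays, by cell state, with Blimp1 null lines in red, heterozygous lines in blue and MEFs in grey. Lines and bars give the mean and SD of a state, and open points were not detected. Dusp4 and Dusp6 were lowest in 2i/LIF ESCs, and Etv4 was lowest in epiSCs, at 5.65 ± 0.53.

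The first comparison asked what the MEK inhibitor medium does to these genes in the same ESC lines. Dusp4, Dusp6 and Fos were lower in 2i/LIF ESCs than in serum ESCs, with log2 changes of -3.11 ± 0.31 (8.66-fold, limma adjusted p = 5.64e-06), -2.02 ± 0.34 (4.07-fold, adjusted p = 3.14e-04) and -2.54 ± 0.39 (5.80-fold, adjusted p = 1.89e-04; SE, n = 6 each). The groups did not overlap for any of these 3 genes. Etv4 changed by -0.88 ± 0.27 and was not called (adjusted p = 0.0152), with 2i/LIF and serum ESCs overlapping. Of 13274 probes tested, 31.1% were called, 15.7% higher and 15.4% lower, against 3 of 4 genes lower. Groups did not overlap for 22% of probes, 11.2% higher and 10.8% lower, against 3 of 4 genes lower. The median change of the 4 genes was -2.28, against 0.03 over all probes tested.

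Read line by line, Dusp4 was lower in 2i/LIF in 6 of 6 lines, by -3.90 (CHE4) to -1.63 (B12), Dusp6 in 6 of 6, by -2.95 (PAN1) to -0.81 (CHE4), and Fos in 6 of 6, by -3.90 (B12) to -1.45 (PUM3), on the log2 scale. An exact two-sided sign-flip permutation test over the lines gave p = 0.03125 for each of these 3 genes, the smallest p that 6 lines allow. Etv4 was lower in 5 of 6 lines, by -1.27 (JAG2) to -0.60 (PAN1), and B12 had a difference of 0.10 (exact p = 0.0625). The test was made on 4 genes and the p-values are unadjusted. With the cell line as a block in the fit, Etv4 passed the threshold (-0.88, limma adjusted p = 0.00348), and without the B12 line in either medium it changed by -1.07 (adjusted p = 2.92e-04).

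**Figure D2:**
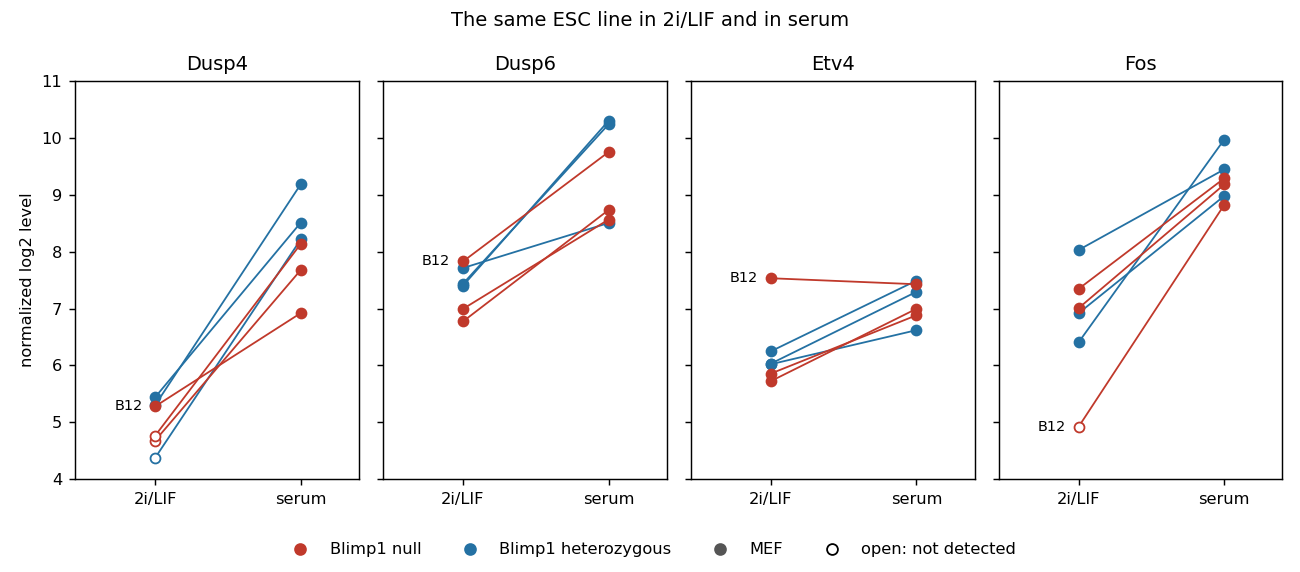
Normalized log2 level of each gene in the same 6 ESC lines in 2i/LIF (left) and in serum (right), joined by line, with Blimp1 null lines in red and heterozygous lines in blue. Open points were not detected. All 6 lines slope the same way for Dusp4, Dusp6 and Fos, and for Etv4 the B12 line alone does not.

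2i/LIF and serum culture differ in both inhibitors and in the serum, and may differ in feeders, so that MEK inhibition and the other differences cannot be told apart. Fibroblast markers were lower in 2i/LIF as well (a median level of 4.56 to 4.64, against 5.79 to 6.21 in serum), and 13 of 15 tested fibroblast genes were called lower and 0 higher. Net of background, Fos in serum ESCs stood at 580 to 1313% of its MEF signal, Dusp4 at 243 to 1311%, Etv4 at 192 to 383% and Dusp6 at 70.2 to 252%, and the median fibroblast marker at 6.27 to 8.96%. The part of fibroblasts in the changes was not tested. A culture with fewer cells that express a gene and a culture with less of its RNA per cell give the same array reading.

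Other genes of the ERK response are counted here without the 4 genes, beside the 15.7% of all probes called higher and the 15.4% called lower. The inhibitor list holds negative regulators of the pathway and also Lgals1. Among its 6 other tested genes, 2 were lower and 0 higher, with a median of -0.26. These were Dusp5 (-1.48, adjusted p = 1.84e-05), another nuclear ERK phosphatase, and Lgals1 (-2.37, adjusted p = 1.15e-06), which encodes the lectin galectin-1 and which fibroblasts also express. Il17rd, a membrane inhibitor of FGF signalling, had a change of 0.71 (adjusted p = 0.0393), and Spred1, an inhibitor of RAF activation, one of -0.47 (adjusted p = 0.201). Of 11 immediate-early genes other than Fos, 7 were lower and 0 higher, with a median of -0.84. Fosb (-2.57, adjusted p = 3.67e-07), Junb (-1.47, adjusted p = 7.07e-06) and Klf6 (-1.85, adjusted p = 2.00e-06) were called, and Egr1 was not (-0.58, adjusted p = 0.310).

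Of 9 ETS genes other than Etv4, 2 were higher, a share near that of all probes, and 0 lower, with a median of 0.54. Elf2 (0.76, limma adjusted p = 1.11e-04) and Elk4, a cofactor of the serum response factor (0.58, adjusted p = 0.00196), passed the test. Etv5, a relative of Etv4, had a change of 0.99 in the direction opposite to that of Etv4 and was not called (adjusted p = 0.0146). Of the phosphatases that act mainly on the stress kinases p38 and JNK, both genes tested were lower, Dusp1 (-1.22, adjusted p = 1.20e-04) and Dusp16 (-0.52, adjusted p = 0.00729). Of 9 tested genes of the RAS to ERK cascade itself, such as Map2k2 (0.33, adjusted p = 0.0163), which encodes MEK2, none passed, and of 4 FGF ligands Fgf4 was lower (-1.18, adjusted p = 0.00448). Of 11 cytoskeletal targets of the serum response factor 8 were lower. Among them were Tpm2 (at least 6.64-fold, limma adjusted p = 2.56e-08) and Myl9 (at least 3.86-fold, adjusted p = 8.23e-08), neither detected in 2i/LIF. Acta2, on this list and also a fibroblast marker, averaged a level of 11.53 in serum ESCs and 4.36, undetected, in 2i/LIF ESCs. Of 11 stress and dissociation genes 6 were lower and 2 higher. The part of serum and of handling in the changes of the 4 genes was not tested.

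**Figure D3:**
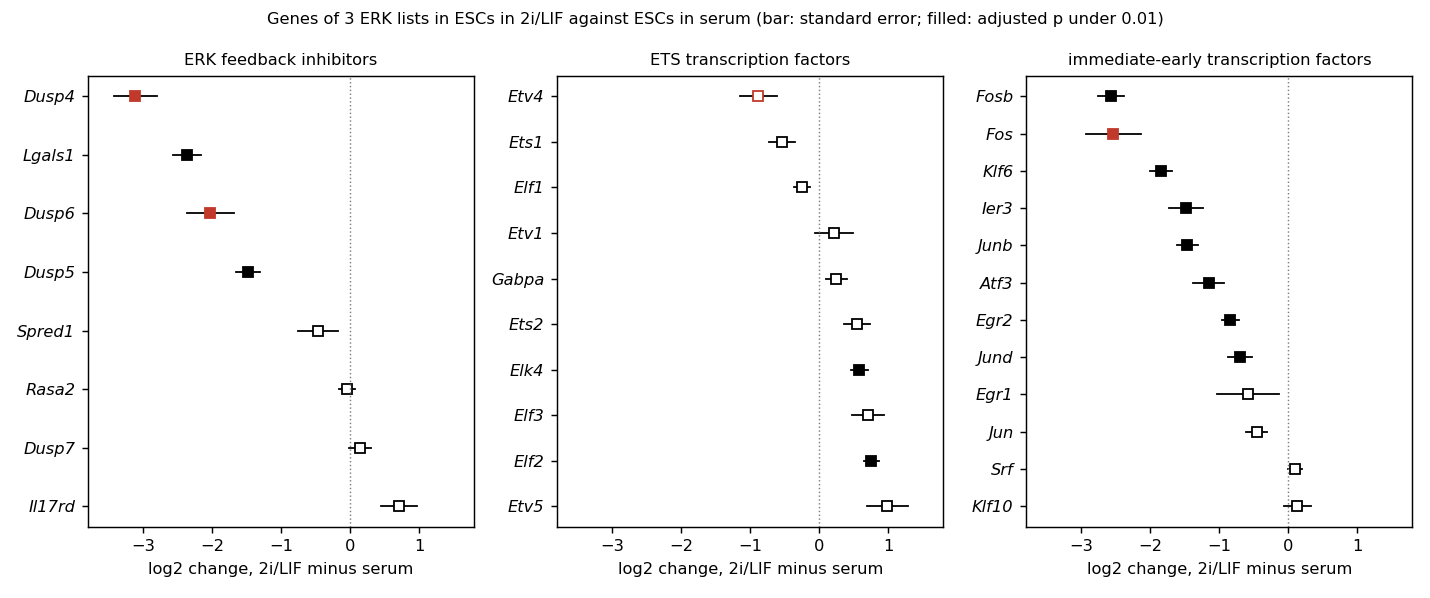
Log2 change in 2i/LIF ESCs minus serum ESCs (n = 6 each) of the tested genes of 3 lists, with bars of 1 standard error; filled squares have an adjusted p under 0.01, and Dusp4, Dusp6, Etv4 and Fos are in red. The called genes of the inhibitor list, Lgals1 included, and the called immediate-early genes lie left of 0, from -3.11 for Dusp4 to -0.70 for Jund. The called ETS genes lie right of it.

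In epiSCs, whose medium supplies bFGF, the 4 genes parted. Against serum ESCs, Etv4 and Fos were lower, with log2 changes of -1.43 ± 0.23 (2.70-fold, limma adjusted p = 2.69e-04) and -1.60 ± 0.21 (3.04-fold, adjusted p = 5.20e-05; SE, n = 5 epiSCs and 6 ESCs), and neither gene's groups overlapped. Dusp6 changed the other way, by 1.16 ± 0.33 (adjusted p = 0.0107), and Dusp4 by -0.84 ± 0.31 (adjusted p = 0.0373), and neither was called. Of 13856 probes tested, 37.1% were called, 18.8% higher and 18.3% lower, and 30.1% had groups that did not overlap, 16.5% higher and 13.7% lower. Against these shares, 2 of the 4 genes were called lower without overlap and 0 higher. Dusp6 came close to the threshold and passed it with a single fit over all 22 pluripotent arrays (1.16, adjusted p = 0.00195) and without the PAN1 or the PUM3 serum array (1.35 and 1.33), and Dusp4 passed it without the B12 serum array (-1.07, adjusted p = 0.00275). Without the BL6 epiSC array the changes were -0.90 for Dusp4, 1.13 for Dusp6, -1.57 for Etv4 and -1.46 for Fos, with each gene on the same side of the threshold.

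Set against 2i/LIF ESCs instead, epiSCs had higher Dusp4 (2.25 ± 0.19, 4.74-fold, limma adjusted p = 5.40e-07) and higher Dusp6 (3.15 ± 0.18, 8.87-fold, adjusted p = 1.70e-08; SE, n = 5 epiSCs and 6 ESCs), with no overlap for either gene. Fos (0.88 ± 0.41, adjusted p = 0.087) and Etv4 (-0.57 ± 0.31, adjusted p = 0.136) were not called, and both overlapped. Of 13946 probes 43.9% were called here, 22.1% higher and 21.9% lower, and 37.5% did not overlap, 19.9% higher and 17.6% lower, so that 2 of 4 genes called is a share close to that of all probes. The 95% interval of the Etv4 change ran from -1.25 to 0.10, and that of Fos from -0.02 to 1.77. Without the BL6 epiSC array they were -0.71 for Etv4 and 1.02 for Fos (adjusted p = 0.0814 and 0.0647), and Dusp4 and Dusp6 kept their calls at 2.20 and 3.13. Both comparisons share the epiSC arrays.

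The other genes of the lists were called in both directions in the comparison with serum ESCs, in which 37.1% of all probes were called. Of 6 other genes of the inhibitor list 2 were higher, Spred1 (2.17, limma adjusted p = 1.19e-04) and Il17rd (1.70, adjusted p = 0.00846). From the same list 1 was lower, Dusp5 (-1.27, adjusted p = 3.28e-04). Of 12 immediate-early genes other than Fos 2 were lower, Fosb (not detected in epiSCs and at least 4.36-fold lower, adjusted p = 3.05e-07) and Klf6 (-0.94, adjusted p = 8.42e-05), and 1 was higher, Srf (0.43, adjusted p = 0.00961), which encodes the serum response factor. Of 9 ETS genes other than Etv4 3 were lower, such as Gabpa (-1.25, adjusted p = 1.29e-04) and Elf3 (-2.38, adjusted p = 1.49e-04), and 4 were higher, such as Elf2 (0.56, adjusted p = 9.99e-04) and Etv1 (1.38, adjusted p = 0.00203), which belongs with Etv4 to the PEA3 group.

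The lists above ERK in the pathway are read against the same 37.1%. Among 7 FGF ligands, Fgf8 (not detected in serum ESCs and at least 8.73-fold higher, adjusted p = 3.20e-09), Fgf5 (3.42, adjusted p = 5.54e-07) and Fgf15 (2.45, adjusted p = 2.16e-05), all expressed in the early embryo, were higher, and Fgf4 (-3.86, adjusted p = 1.93e-05) and Fgf10 (-0.61, adjusted p = 0.0069) were lower. Of 6 receptors and coreceptors 3 were called, a share not far from the 37.1% of all probes. All 3 were higher and 0 lower, beside 18.8% of all probes called higher. They were led by the heparan sulfate proteoglycan genes Gpc1 (1.305, limma adjusted p = 8.26e-05) and Gpc3 (0.87, adjusted p = 0.00115). Of 10 genes of the cascade 5 were higher and 3 lower, among them Nras (1.16, adjusted p = 6.02e-05) and the adaptor gene Gab1 (-1.97, adjusted p = 2.10e-04). Median fibroblast marker levels were 5.34 to 6.24 in epiSCs and 5.79 to 6.21 in serum ESCs, and of 18 fibroblast genes tested 9 were lower and 4 higher. Dusp1 was lower by -2.42 (limma adjusted p = 9.62e-07), and of 11 stress and dissociation genes 7 were lower and 1 higher. The part of handling and of medium in these differences was not tested.

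The rESCs differed from epiSCs in cell state and in medium, with LIF and serum in place of activin A and bFGF. In the study rESCs were passaged with trypsin and epiSCs with collagenase, so that these differences cannot be told apart. Etv4 rose in rESCs relative to epiSCs by 2.18 ± 0.25 (4.52-fold, limma adjusted p = 7.53e-05) and Fos by 1.103 ± 0.21 (2.15-fold, adjusted p = 0.00166; SE, n = 5 each), and the groups of neither gene overlapped. Dusp4 (1.05 ± 0.32, adjusted p = 0.0219) and Dusp6 (-0.51 ± 0.14, adjusted p = 0.0159) were not called and overlapped. Of 13418 probes 23.2% were called, 10.6% higher and 12.5% lower, and 25.5% did not overlap, 11.4% higher and 14.1% lower. In the 4 lines with both states, BL3, BL7, BL2 and BL6, Etv4 was higher in the rESC of 4 of 4 lines, by 1.82 to 2.88, and Fos in 4 of 4, by 0.32 (BL7) to 2.02 (BL6). Read by its brightest probe, Dusp6 was lower in 4 of 4 lines, by -0.89 (BL7) to -0.15 (BL3). Dusp4, read likewise, was higher in 3 of 4, by 1.29 to 1.93, with -0.01 in BL7. The dimmer Dusp6 probes did not share the uniform fall, with ILMN_1248537 higher in 3 of 4 lines and ILMN_2701321 in 2 of 4. Of the dimmer Dusp4 probes, ILMN_2450767 was higher in 2 of 4 lines, and ILMN_2870965 and ILMN_2608995 each in 4 of 4. Some of these dimmer readings were undetected. When the cell line was a block in these 4 lines, Fos missed the threshold (1.205, adjusted p = 0.0122, against 0.00407 for the same arrays with no block), and with a single fit over all 22 arrays it missed it too (1.13, adjusted p = 0.0202).

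The lists are read beside the 23.2% of all probes called. Of 10 tested genes of the inhibitor list, the 2 members included, 2 were higher in rESCs than in epiSCs. They were Spry4 (1.86, limma adjusted p = 0.00127), a membrane-associated inhibitor of the pathway, and Dusp5 (1.51, adjusted p = 0.00202). Of 10 ETS genes 3 were higher, Etv4, Etv5 (1.90, adjusted p = 0.00105) and Gabpa (1.23, adjusted p = 5.50e-04), and 0 lower. Of 13 immediate-early genes Fos and Fosb (at least 2.45-fold, adjusted p = 9.55e-05) were higher and 0 lower. Dusp1 was higher by 2.18 (adjusted p = 2.03e-05), Fgf4 by 2.56 (adjusted p = 9.43e-04) and Gab1 by 2.24 (adjusted p = 2.59e-04), while Fgf5 (-2.86, adjusted p = 2.04e-05) and Fgf8 (-2.79, adjusted p = 5.37e-05) were lower. Of 17 fibroblast genes 4 were higher and 0 lower, and of 11 stress and dissociation genes 4 were higher and 0 lower. Leaving out the BL6 epiSC array, with its naive markers, gave 2.32 for Etv4 (adjusted p = 3.85e-05) and 0.96 for Fos (adjusted p = 0.00218), and leaving out the J2.3 rESC array, with its fibroblast markers, as well gave 2.47 for Etv4 (adjusted p = 2.57e-05) and 1.04 for Fos (adjusted p = 0.00124).

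Set against ESCs that had never been epiSCs, in serum, no member passed the test in rESCs. The changes were 0.22 ± 0.41 for Dusp4 (limma adjusted p = 0.769), 0.65 ± 0.35 for Dusp6 (adjusted p = 0.249), 0.70 ± 0.19 for Etv4 (adjusted p = 0.0528) and -0.50 ± 0.22 for Fos (adjusted p = 0.170; SE, n = 5 rESCs and 6 ESCs), with every pair of groups overlapping. Of 13495 probes limma called 0.193%, 0.0519% higher and 0.141% lower, 3539 had an unadjusted p under 0.05, and 4.32% did not overlap, 2.68% higher and 1.64% lower. The 95% intervals ran from -0.67 to 1.103 for Dusp4, from -0.10 to 1.398 for Dusp6, from 0.29 to 1.12 for Etv4 and from -0.98 to -0.03 for Fos. Against 2i/LIF ESCs all 4 genes were higher in rESCs, Dusp4 by 3.42 ± 0.33 (10.7-fold, adjusted p = 1.12e-05), Dusp6 by 2.68 ± 0.20 (6.39-fold, adjusted p = 1.71e-06), Etv4 by 1.61 ± 0.29 (3.06-fold, adjusted p = 0.00113) and Fos by 2.04 ± 0.43 (4.12-fold, adjusted p = 0.00338), where 18.7% of 13516 probes were called, 9.74% higher and 8.97% lower. Etv4 alone of the 4 overlapped between those groups, through B12, and 18% of probes did not overlap, 9.61% higher and 8.41% lower. Fos missed the threshold there with no filter on dim probes (adjusted p = 0.0174) and without the BL6 rESC array (1.95, adjusted p = 0.0106).

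**Figure D4:**
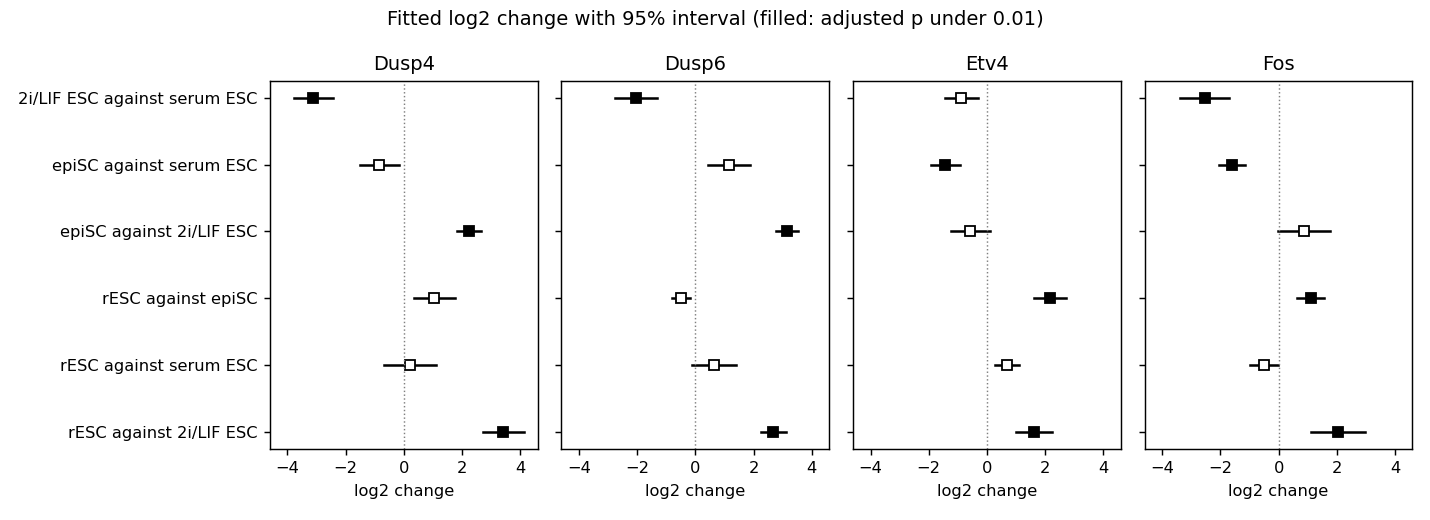
Fitted log2 change of the brightest probe of each gene in 6 comparisons of cell states, the first state named minus the second, with the 95% interval as a bar and filled squares for an adjusted p under 0.01. Dusp4 and Dusp6 are set apart most in the comparisons with 2i/LIF ESCs, from -3.11 to 3.42 for Dusp4, and Etv4 and Fos are called wherever epiSCs are compared with serum ESCs or rESCs.

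Loss of Blimp1, a transcriptional repressor needed to specify primordial germ cells, was the genetic contrast of the study. No member was called between null and heterozygous lines in any state. In serum ESCs Dusp4 read 8.14, 7.68 and 6.92 in the null lines JAG2, JAG1 and B12, against 9.19, 8.51 and 8.22 in the heterozygous lines CHE4, PUM3 and PAN1. These groups did not overlap, and the change of -1.07 ± 0.36 had an adjusted p of 0.910 (limma, SE, n = 3 each). Dusp6, Etv4 and Fos overlapped in serum ESCs, with changes of -0.67 ± 0.53, -0.03 ± 0.27 and -0.37 ± 0.28 (adjusted p = 0.910, 0.991 and 0.910). limma called 0 of 13527 probes there (0%, with 608 at an unadjusted p under 0.05), and 10.4% of probes had groups that did not overlap.

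In 2i/LIF ESCs the null minus heterozygous changes were -0.12 ± 0.28 for Dusp4, -0.33 ± 0.27 for Dusp6, 0.27 ± 0.44 for Etv4 and -0.69 ± 0.65 for Fos, and every gene's groups overlapped (limma called 0 of 13380 probes, 0%, with 733 at an unadjusted p under 0.05, and 10.5% did not overlap). In epiSCs they were 0.26 ± 0.21, 0.03 ± 0.18, 0.07 ± 0.38 and -0.45 ± 0.22 in the same order, and here 58 of 14355 probes (0.404%) were called, all lower in null lines and none of them a probe of the 4 genes, and the count was 0 when any 1 of the 5 arrays was left out. Fos alone of the 4 had epiSC groups that did not overlap, beside 34.6% of probes. In rESCs they were 0.47 ± 0.57, 0.13 ± 0.26, -0.33 ± 0.27 and 0.08 ± 0.33, with 0 of 13961 probes called, 673 at an unadjusted p under 0.05 and 19.7% without overlap, where the 4 genes overlapped. Over all states together, with the cell line as a block, the genotype changes of the 4 genes lay between -0.38 ± 0.27 for Fos and -0.02 ± 0.22 for Etv4, with adjusted p from 0.746 to 0.989, and 0 of 13076 probes were called, with 1003 at an unadjusted p under 0.05.

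Whether genotype altered the response to the medium was tested as an interaction. The 2i/LIF minus serum change differed between null and heterozygous lines by 0.95 ± 0.50 for Dusp4, 0.36 ± 0.65 for Dusp6, 0.30 ± 0.56 for Etv4 and -0.31 ± 0.78 for Fos (limma adjusted p = 0.998 for each), with 0 of 15225 probes called and 550 at an unadjusted p under 0.05. The rESC minus epiSC change differed by 0.20 ± 0.65, 0.11 ± 0.31, -0.39 ± 0.53 and 0.53 ± 0.41 in the same order (adjusted p = 0.999 for each), with 0 of 15926 probes called and 369 at an unadjusted p under 0.05. Prdm1, the gene of Blimp1, was not analysed here, so that the genotype labels were not checked by its level.

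Etv4 and Fos each rest on 1 probe, whereas Dusp4 and Dusp6 have dimmer ones that can be read beside the brightest. All 5 of these were undetected in every 2i/LIF ESC. For Dusp4, ILMN_2870965 followed the brightest probe, ILMN_2689731, over the 22 pluripotent arrays (Pearson r = 0.90), and was lower in 2i/LIF than in serum ESCs (-1.35, adjusted p = 5.24e-04, at least 2.01-fold with the 2i/LIF reading set to the lowest signal detected on each array). ILMN_2608995 gave r = 0.77. ILMN_2450767 gave r = 0.60 and did not follow it in epiSCs, where it was higher than in serum ESCs (1.23 ± 0.33, adjusted p = 0.0067) while the brightest was lower by a change that missed the threshold.

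For Dusp6, ILMN_2701321 followed the brightest probe, ILMN_2925711, at r = 0.92, and was higher in epiSCs than in 2i/LIF ESCs (1.497 ± 0.11, adjusted p = 1.66e-07, at least 1.97-fold). ILMN_1248537 gave r = 0.68 and lay closer to ILMN_2450767 of Dusp4 (r = 0.83). These correlations are over 22 arrays that share cell states and lines, and are a description. In serum ESCs ILMN_2701321 was detected on 3 of 6 arrays and ILMN_1248537 on 2 of 6, too few for a limma test against 2i/LIF. Each was lower in 2i/LIF in 5 of 6 lines, with mean changes of -0.64 and -0.56 (sign-flip exact p = 0.09375 for each, unadjusted). In null epiSCs ILMN_1248537 read 4.84 (BL2) and 5.04 (BL6), undetected, against 7.04, 6.48 and 6.44 in heterozygous epiSCs BL7, BL4 and BL3, and ILMN_2450767 read 6.28 and 5.67 in null epiSCs against 7.54, 7.32 and 7.01 in heterozygous epiSCs. The changes, -1.66 ± 0.22 (adjusted p = 0.0127) and -1.29 ± 0.24 (adjusted p = 0.0325), were not called, and the brightest probes of both genes changed by 0.03 ± 0.18 and 0.26 ± 0.21 there. Which transcripts the probes match was not analysed here.

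**Figure D5:**
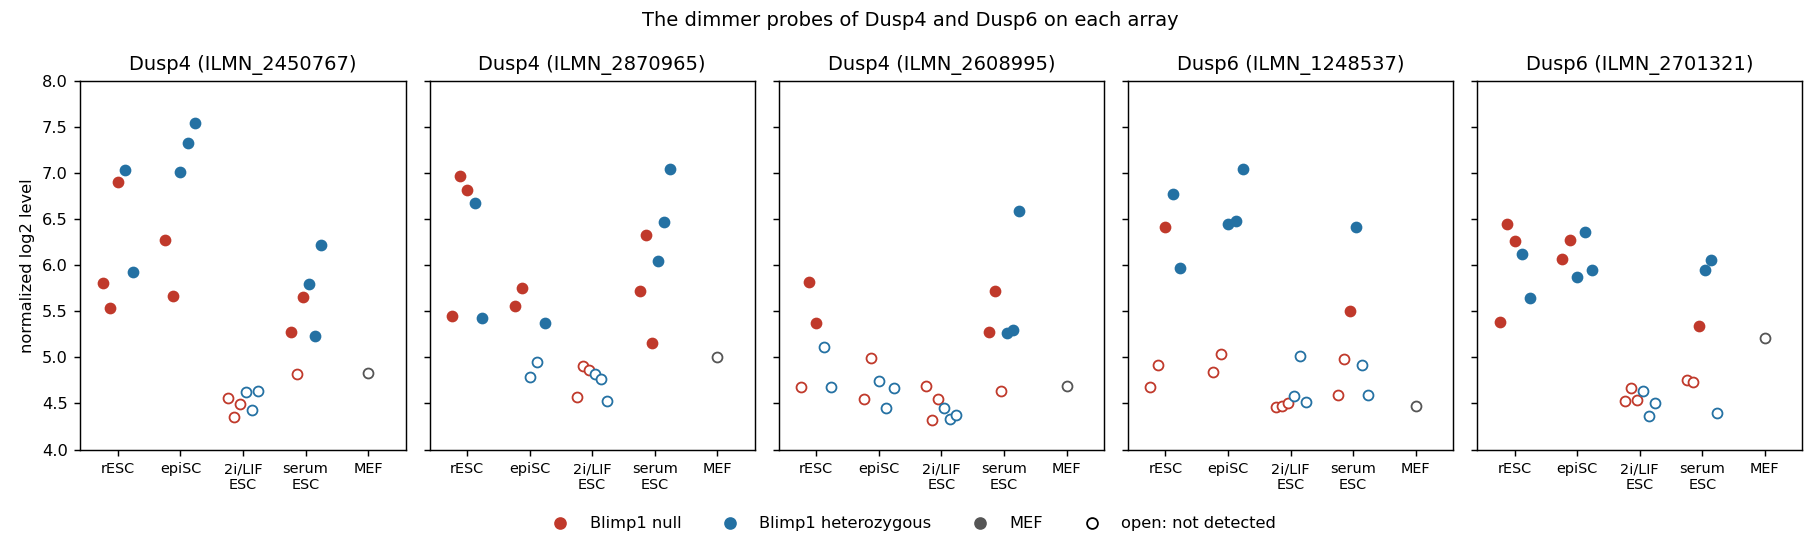
Normalized log2 level of the 5 dimmer probes of Dusp4 and Dusp6 on each array, by cell state, with Blimp1 null lines in red, heterozygous lines in blue, MEFs in grey and open points for undetected readings. ILMN_2450767 and ILMN_1248537 are high in the 3 heterozygous epiSCs and lower in the 2 null ones, and none of the 5 is detected in 2i/LIF ESCs.

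Over the 22 pluripotent arrays Dusp4 varied with Fos (Pearson r = 0.78) and with Dusp6 (r = 0.74), and less with Etv4 (r = 0.54), while Dusp6 and Etv4 had r = 0.17, Dusp6 and Fos 0.47 and Etv4 and Fos 0.41. These values describe arrays that fall into 4 cell states and share lines. Among 9161 genes compared, the 5 whose levels ran most like Dusp4 were Hbp1 (r = 0.92), Spsb1 (0.91), Bgn (0.91), Gngt2 (0.90) and Wsb2 (0.90), of which Bgn is a fibroblast marker. Cd276 (r = 0.97), Bcar1 (0.96), Tmem237 (0.95), Stab1 (0.94) and Nt5dc2 (0.94) ran most like Dusp6, and Krt17 (0.88), Ppm1j (0.88), Slc29a1 (0.87), Twf2 (0.86) and Hsd17b14 (0.86) most like Etv4. For Fos they were its family member Fosb (r = 0.88), Tcfl5 (0.87), Tspan4 (0.86), Atxn2 (0.86) and Tmem159 (0.85). The genes that ran most opposite were Prep (r = -0.90) and Mppe1 (-0.90) for Dusp4, Gss (-0.95) and Fetub (-0.95) for Dusp6, Smarca2 (-0.88) and Slc25a47 (-0.86) for Etv4, and 2410002F23Rik (-0.91) and Tmem216 (-0.89) for Fos.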

How the data were processed

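Illumina Mouse WG-6 v2 BeadChips carried the RNA of 22 pluripotent cultures and 1 MEF culture. The deposited signal intensity table holds, per the file headers, a bead signal and a detection p-value for each of 45281 probes and was used as given; 2 of its columns, the signal and detection p-value of a J2.3 epiSC, match no sample here and were not used. The authors also deposited a log2 table of 20482 probes, made with lumi by variance stabilization and quantile normalization, which served as an alternative. Genes were named from the platform annotation (17604 probes with 1 symbol, 8 with several, none of which was named), and 17584 were matched to RefSeq.

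In limma 3.58.1 (R 4.3.3) signals were background-corrected by normexp from the detection p-values with an offset of 16, quantile-normalized over the arrays of each comparison (over all 23 for the levels) and moved to log2, so that fitted means and levels differ slightly. Testing required detection (p under 0.01) on a number of arrays no lower than the size of the smaller group, and a call required an adjusted p (Benjamini-Hochberg, over every probe tested) under 0.01; a gene is its brightest probe. Interactions had 4 groups, and the test over all states took the cell line as a random block. The fit was tested on simulated data.

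The 4 genes, the 14 gene lists and the tests were chosen with earlier results of these data known, and none is independent support. Named genes are the 4, up to 4 per list and comparison by smallest adjusted p, and the 5 most and 2 least alike per gene; others named were chosen after their values were seen. The replicate pairing rests on the cell line: deviations of the same ESC line in the 2 media from the group means correlated at 0.116 to 0.454 in 6 of 6 lines, with 3 of 6 highest with their own line. The labels and files give no batch. Alternatives changed the background correction, scaling, filter, value table, prior, covariate, block, probe and arrays.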

Additional observations from a re-analysis of the deposited data

Results flagged for a closer look

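In groups of 5 or 6 arrays, 3 of the 36 sets of probe readings checked had a single array far from the rest, where chance gives about 1 in 20. Etv4 read 7.53 in the B12 line in 2i/LIF, against 5.72 to 6.25 in the other 5 lines, with detection in 6 of 6. Dusp4 (ILMN_2689731) read 6.81 in the BL3 epiSC, against 7.31 to 7.49 in the other 4 epiSCs. The Dusp6 probe ILMN_1248537 read 5.01 in PUM3 in 2i/LIF, against 4.46 to 4.58 in the other 5 lines, where it was detected in none of the 6.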

How the results depend on the processing

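Each array is 1 line, so the number of lines limits the precision. Of 488 settings tried for the 4 genes between states, 468 kept the side of the threshold, and also the direction wherever a fit was called. A change of sign between fits that both missed the threshold was counted as kept. Dusp4 in rESCs against serum ESCs, at 0.22, thus reached -0.02 with a single array left out. Etv4 in 2i/LIF against serum ESCs passed the threshold with all 22 arrays fitted together (-0.88, limma adjusted p = 0.00906), with the cell line as a replicate block (-0.88, adjusted p = 0.00348) and without the B12 line in both media (-1.07, chosen after seeing the data); leaving out single arrays gave -1.13 (B12 in 2i/LIF) to -0.78. Dusp6 in epiSCs against serum ESCs passed it in the fit of all arrays (1.16) and with an intensity trend (1.16), and single arrays left out gave 0.99 to 1.35, past the threshold at 1.35 without PAN1 and 1.33 without PUM3. Dusp4 there was reversed by the probe ILMN_2450767 (1.23) and ran from -1.07 (without B12, past the threshold) to -0.63. In rESCs against epiSCs, Fos lost its call with all arrays fitted together (1.13) and with the replicate block (1.205). Dusp6 there passed with no background correction (-0.48), with the authors' values (-0.49) and with the trend (-0.51), and ran from -0.59 (without BL6 rESC, past the threshold) to -0.44; Dusp4 ran from 0.85 to 1.29, past it without BL7 (1.29) and J2.3 (1.22) rESCs. Fos in rESCs against 2i/LIF ESCs lost its call with no filter on dim probes (2.04) and without BL6 (1.95), in a range of 1.66 to 2.302. Probes called in rESCs against serum ESCs numbered 26, and 661 in the fit of all arrays, 5 with no filter, 9 with a genotype term, 92 without J2.3, 12 without PAN1, 10 without PUM3, and 3 to 494 (without B12) over all single arrays left out. The 58 probes called between null and heterozygous epiSCs fell to 0 with no filter, with the authors' values, with the label number as a replicate block and without any single array, and the 0 called in 2i/LIF became 1 without PAN1. The label numbers of null and heterozygous lines did not pair them (r = -0.50 to 0.19). The replicate block changed no other call of the 4 genes. The cause of these differences was not tested.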

Other observations

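Fibroblast genes reached their highest median level among the pluripotent cultures in the J2.3 rESC, at 7.08, against 5.74 to 6.19 in the other 4 rESCs. In the same array Dusp4 read 7.63, Dusp6 9.77, Etv4 7.30 and Fos 8.45, and Etv4 was at its lowest of the 5 rESCs there.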
